A study of Homo sapiens with 8 samples.

Results

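The genes described here are 10 genes of the MHC class II pathway, chosen by name from the 56632 genes of the count table. They are the co-activator CIITA, the RFX subunits RFX5, RFXAP and RFXANK, the invariant chain CD74, the class II chains HLA-DRA, HLA-DRB1 and HLA-DPA1, and the chains HLA-DMA and HLA-DMB of the peptide editor HLA-DM. All 10 were among the 18431 genes with enough counts to be tested. The data were 8 poly A+ RNA-seq libraries, 2 biological replicates from each of 4 isogenic mammary epithelial lines, grown for 8 days as acini in Matrigel. M1 is MCF10A, an immortalized line that forms no tumors. M2 (MCF10AT1k.cl2) was made from MCF10A with activated T24-HRAS and taken through a xenograft. M3 (MCF10Ca1h) and M4 (MCF10CA1a.cl1) came from carcinomas that grew out of M2 xenografts. Each stage is therefore 1 line, and M2 and M4 carry clone numbers in their names. All lines had 2% horse serum, hydrocortisone, cholera toxin and insulin. The acini of M1 and M2 also received EGF (10 ng/ml) and those of M3 and M4 did not, so line and EGF cannot be told apart when M3 or M4 is set against M1 or M2. No interferon was added in any protocol given.

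MHC class II molecules carry peptides from the endosome to the cell surface for CD4+ T cells. Professional antigen-presenting cells make them all the time, and epithelial cells make them mostly after interferon-gamma. On their promoters RFX5, RFXAP and RFXANK form the RFX complex on the X box, NF-Y sits on the Y box, and CIITA, which does not bind DNA itself, is recruited to this platform and switches transcription on. CD74 shields the peptide groove of new class II molecules until cathepsins trim it away, and HLA-DM then exchanges its last fragment for other peptides.

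Library totals ran from 69669945 to 107350288 counts, with a median of 84947193. Spearman's rho between replicates, across 13495 genes that are not independent of each other, was 0.971 for M1, 0.998 for M2, 0.977 for M3 and 0.986 for M4. The M1 replicates were far apart for several genes described here, as given below. In the study's own expression values the second M1 library and the first M2 library carry the name of the other line. Paired by those names, the replicates would have a rho of 0.96 for M1 and 0.962 for M2, below the values given for the sample labels. Which names are right was not tested. Groups follow the sample labels. For the 10 genes, values with M1 replicate 2 and M2 replicate 1 exchanged or left out stand beside the results they touch. No such values are given for the other genes named. Levels are counts per 1000000 after TMM scaling (CPM), given as mean ± SD with n = 2; paired values are replicate 1, then replicate 2. A gene was called when edgeR's quasi-likelihood test gave an adjusted p under 0.05, over all genes tested, and the log2 fold change exceeded 1 in either direction. The 6 comparisons share their libraries in pairs, so they are not independent of each other. All 8 mammary epithelial markers examined had at least 10 counts in every library, and HRAS lay at 139 to 160 CPM in M1 and M2 and at 269 to 352 CPM in M3 and M4.

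M4 stood apart from the other lines. HLA-DRB1 was tested only because its M2 counts were high, so it is left out of the count against M2. Of the other 9 genes, 6 were called against M2 and all 6 were lower in M4 (CIITA, RFX5, CD74, HLA-DRA, HLA-DMB and HLA-DPA1). Across all genes tested in that comparison, 13.9% were called and 6.94% were called lower. Against M1, these 6 were again called lower, where 20.7% of all genes were called and 11.2% were called lower. Against M3, 4 were called lower (RFX5, CD74, HLA-DRA and HLA-DPA1), where 10.3% of all genes were called and 6.3% were called lower. With 1 library left out in turn, between 1 and 2 of the 10 genes were called against M2, between 1 and 7 against M1 and between 1 and 2 against M3. Over CIITA, RFX5, RFXAP and RFXANK the median log2 fold change in M4 was -0.96 against M1, -0.89 against M2 and -0.38 against M3. Over all genes tested it was -0.02, -0.01 and -0.02. No median is given for the chain genes, since several had 0 counts in M4. In bulk RNA, fewer cells with a transcript and less transcript per cell cannot be told apart.

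M3 and M2 differed from their predecessors in fewer of these genes. CIITA was the 1 gene of the 10 called in M3 against M1 and in M3 against M2, with less in M3. Over all genes, 13.5% were called in the first of these comparisons, and 4.15% were called and 1.2% called lower in the second. Between M2 and M1 edgeR called 0 of the 10 genes, beside 3.37% of all genes; 0 had an unadjusted p under 0.05, and DESeq2 called 0 as well. The absence of a call there stands beside the wide gap between the M1 replicates. A simple 2-fold rule on the CPM of each replicate pair, which carries no error, put 7 of the 10 genes lower in M4 than in M1 (all but RFXAP, RFXANK and HLA-DMA), beside 10.7% of the 29419 genes with a count.

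**Figure D1:**
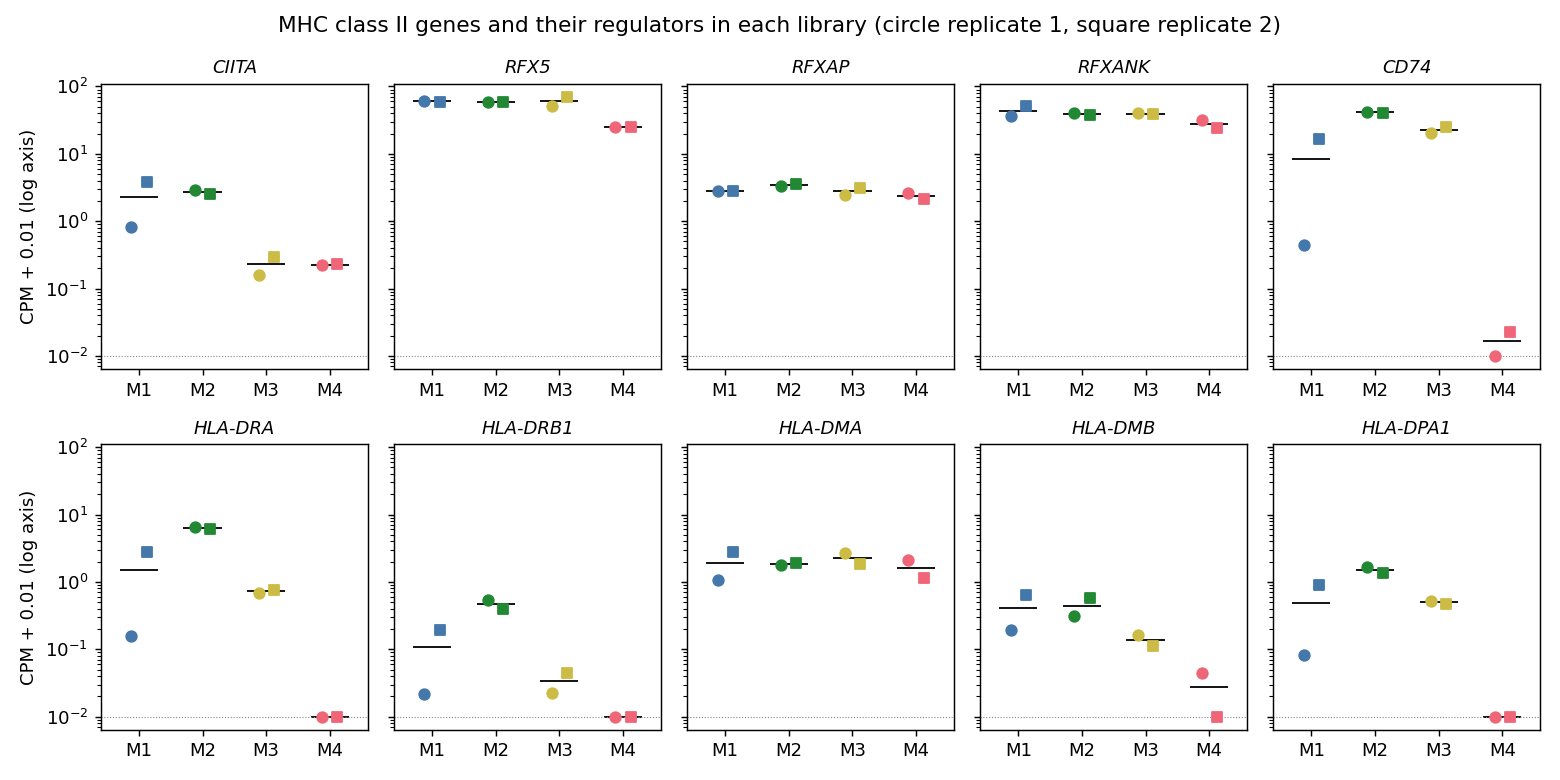
CPM plus 0.01 (log axis) of the 10 genes in each library, by line; circles are replicate 1, squares replicate 2, bars the mean of the 2 libraries, and the dotted line marks a CPM of 0. RFX5 lay near 25.0 CPM in M4 and above 50 CPM in the other 6 libraries, and HLA-DRA, HLA-DRB1 and HLA-DPA1 sat on the dotted line in M4.

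CIITA (ENSG00000179583; GRCh37 chromosome 16, 10960079 to 11036878, plus strand) is the inducible master regulator of the class II genes. Its counts were 66 and 307 for M1, 297 and 180 for M2, 12 and 25 for M3, and 24 and 17 for M4. Both M3 and both M4 libraries lay below all 4 M1 and M2 libraries. Mean CPM was 2.27 ± 2.08 for M1, 2.74 ± 0.253 for M2, 0.219 ± 0.0958 for M3 and 0.215 ± 0.00445 for M4. Against M2 it was 12.4-fold lower in M3 (log2 fold change -3.63, SE 0.748, edgeR adjusted p = 0.0347) and 12.7-fold lower in M4 (-3.67, SE 0.747, adjusted p = 0.0129). Against M1 the log2 fold change was -3.36 in M3 (SE 0.741, adjusted p = 0.0178) and -3.40 in M4 (SE 0.74, adjusted p = 0.0119). M3 and M4 were not distinguished from each other, with a log2 fold change of -0.04 and a 95% interval from -1.74 to 1.66. With any 1 of the 4 libraries compared left out, the adjusted p rose to between 0.0541 and 0.0875 for M4 against M2 and to between 0.0963 and 0.176 for M3 against M2. For M4 against M1 it was 0.0738 without M4 replicate 1 and 0.0767 without M4 replicate 2, and with M1 replicate 2 and M2 replicate 1 both left out it was 0.096. Without M1 replicate 2 alone the log2 fold change shrank to -1.89 (adjusted p = 0.0376). For M3 against M1 it was 0.0915 without M3 replicate 1, 0.0607 without M3 replicate 2, 0.0928 with the labelled M1 and M2 libraries exchanged, 0.124 with both left out and 0.062 in a fit of these lines alone. The call was also lost without M1 replicate 2, where the log2 fold change was -1.85 and the adjusted p rounded to 0.05. The exchange gave 0.0191 for M4 against M2 and 0.0628 for M3 against M2. The span of CIITA shares 13578 bases with DEXI, a gene on the other strand that lay between 19.1 and 24.6 CPM in every library; whether counting used strand is not given in the sources used here, and the part of DEXI reads in the low CIITA counts was not tested.

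RFX5 (ENSG00000143390; chromosome 1, 151313116 to 151319802, minus strand) is the DNA-binding subunit of the RFX complex. Its CPM was 61.4 and 58.4 for M1, 58.0 and 59.6 for M2, 50.4 and 70.6 for M3, and 25.0 and 24.9 for M4. The M4 libraries lay apart from all 6 others, which overlapped among the lines. RFX5 was 2.40-fold lower in M4 than in M1 (log2 fold change -1.26, SE 0.173, edgeR adjusted p = 0.00192), 2.36-fold lower than in M2 (-1.24, SE 0.173, adjusted p = 0.00327) and 2.43-fold lower than in M3 (-1.28, SE 0.173, adjusted p = 0.00517). These calls held in every alternative run, including each library left out in turn. Between M1, M2 and M3 the differences were small, from -0.03 to 0.04, and the 95% interval of M3 against M2 ran from -0.35 to 0.43. The antisense gene RFX5-AS1 shares 389 bases with RFX5; it had 12 and 29 counts for M1, 27 and 28 for M2, 5 and 10 for M3, and 3 and 8 for M4, and was called in no comparison (lowest adjusted p = 0.0862, M4 against M2).

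The partner subunits did not follow RFX5 past the threshold. RFXAP (chromosome 13, 37393359 to 37403241, plus strand), which links the complex together, lay between 2.10 and 3.50 CPM in all 8 libraries and was called in no comparison. Its log2 fold change in M4 against M2 was -0.54 (95% interval from -1.22 to 0.13, adjusted p = 0.216). RFXANK (chromosome 19, 19303038 to 19312678, plus strand), the ankyrin repeat subunit, had 36.3 and 50.8 CPM for M1, 40.2 and 37.1 for M2, 39.9 and 38.6 for M3, and 31.3 and 23.8 for M4. Both M4 libraries were the lowest of the 8. The log2 fold change in M4 was -0.66 against M1 (SE 0.202, adjusted p = 0.0401), short of the fold threshold, and -0.49 and -0.51 against M2 and M3 (adjusted p = 0.118 and 0.119). Against M1 its adjusted p ran up to 0.229 with 1 library left out. NR2C2AP and BORCS8, on the other strand, share 461 and 363 bases with RFXANK.

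**Figure D2:**
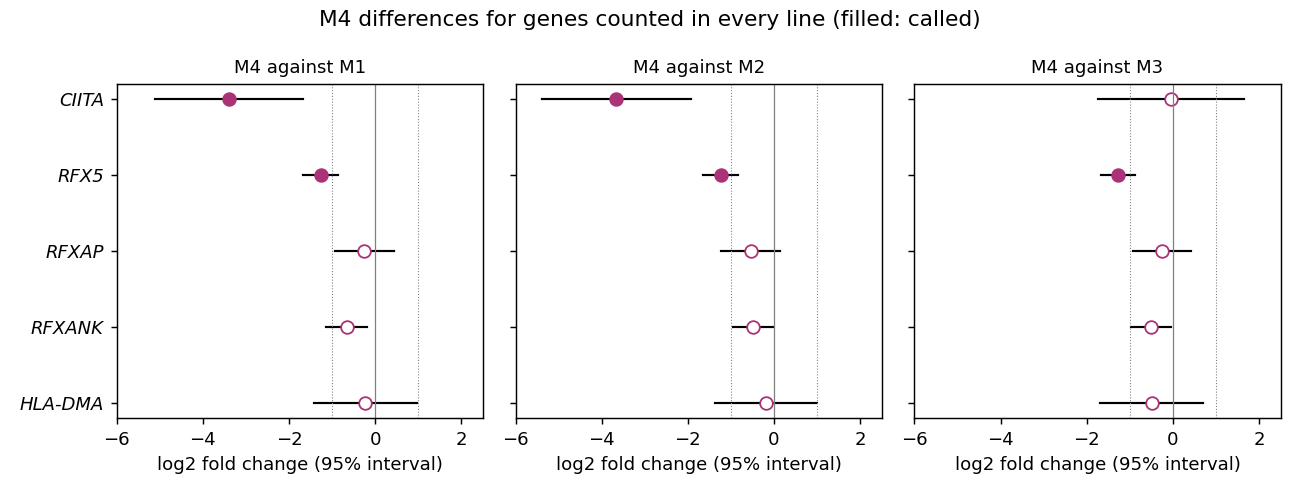
Log2 fold changes of M4 against M1, M2 and M3 with 95% intervals (lines) for the genes with at least 10 counts in every library; filled points were called, and dotted lines mark the fold threshold. RFX5 was called in all 3 panels, CIITA in M4 against M1 and M2, and the intervals of RFXAP and HLA-DMA crossed 0 in all 3.

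Class II promoters are known for an X box followed by a Y box, and the promoter entries of RefSeq were read for letters of that kind. An entry was found for 5 of the 6 chain and chaperone genes described here (CD74, HLA-DRB1, HLA-DMA, HLA-DMB and HLA-DPA1). AG, C and TGA with 3 free bases between each, letters that resemble an X box, and CCAAT, the core of a Y box, were searched on both strands; the X letters were chosen after reading these promoters. The windows run in the direction of the gene, with both sets of letters in capitals (the second one as ATTGG where it lies on the other strand).
CD74: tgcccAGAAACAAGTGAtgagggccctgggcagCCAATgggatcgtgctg
HLA-DRB1: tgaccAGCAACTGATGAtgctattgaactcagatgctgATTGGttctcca
HLA-DMA: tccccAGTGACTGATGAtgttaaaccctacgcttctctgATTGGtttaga
HLA-DMB: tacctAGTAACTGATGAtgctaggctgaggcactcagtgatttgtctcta
HLA-DQB1: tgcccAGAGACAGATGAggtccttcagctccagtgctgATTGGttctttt
HLA-DOB: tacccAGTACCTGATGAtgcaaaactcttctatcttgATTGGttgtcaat
In GRCh37, matched exactly, they lie on the minus strand at chr5:149792510-149792559 (CD74), chr6:32557660-32557709 (HLA-DRB1), chr6:32920943-32920992 (HLA-DMA), chr6:32908849-32908898 (HLA-DMB), chr6:32634511-32634560 (HLA-DQB1) and chr6:32784865-32784914 (HLA-DOB). HLA-DQB1 and HLA-DOB are shown because their levels moved differently from those of the 10 genes. The X letters begin 79 to 130 bases before the RefSeq start, and in 5 of these 6 windows CCAAT letters follow after 16 to 22 bases; the HLA-DMB entry has the X letters without CCAAT letters in reach. The 2 promoter entries of HLA-DPA1 do not hold the X letters, and those of RFX5 hold the X letters in 3 of 3 without CCAAT letters in reach. Of 35116 RefSeq promoter entries of the same length, 12.9% hold the X letters, 34.6% the CCAAT letters and 0.698% both within 30 bases. HLA-DPB1, HLA-DQA1 and HLA-DOA have entries without the X letters, and HLA-DQA2 has them without the pair. Since the letters were chosen on these promoters, the shares are a description and support no layout. HLA-DMA, which was called in no comparison, and CD74, which had 0 and 1 counts in M4, both carry them.

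CD74 (ENSG00000019582; chromosome 5, 149781200 to 149792532, minus strand), the invariant chain, showed the widest range of the 10 genes. Its counts were 36 and 1356 for M1, 4199 and 2878 for M2, 1619 and 2175 for M3, and 0 and 1 for M4. The M4 libraries were below every other library, and M2 was above all others. Mean CPM was 41.1 ± 0.23 in M2, 22.7 ± 3.20 in M3 and 8.49 ± 11.4 in M1. From the summed counts, CD74 was 7873-fold lower in M4 than in M2 (95% exact interval from 1413 to 3.11e+05, counting error only), 4371-fold lower than in M3 (from 784 to 1.727e+05) and 1619-fold lower than in M1 (from 290 to 6.398e+04). The edgeR adjusted p was 0.00908 against M2, 0.016 against M3 and 0.0135 against M1. M3 and M2 were not distinguished (log2 fold change -0.85, SE 1.12, adjusted p = 0.711), although the libraries did not overlap. Without 1 of the compared libraries the adjusted p lay between 0.0525 and 0.0756 for M4 against M2, was 0.115 without M4 replicate 1 and 0.0893 without M4 replicate 2 for M4 against M3, and was 0.0905 and 0.0835 without these M4 libraries for M4 against M1. In a fit of M1 and M4 alone it was 0.051. The size against M1 rests on M1 replicate 2, without which the log2 fold change was -6.03 (adjusted p = 0.00157) in place of -10.31. With 1 library left out it ran from -14.82 to -11.48 against M2 and from -13.97 to -10.63 against M3.

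HLA-DRA (ENSG00000204287; chromosome 6, 32407655 to 32412823, plus strand) encodes the alpha chain of HLA-DR, which pairs with every DR beta chain. Its counts were 12 and 229 for M1, 659 and 431 for M2, 53 and 66 for M3, and 0 in both M4 libraries. M2 was highest and M4 lowest without overlap. Taking 3 counts over both M4 libraries as the limit that a count of 0 allows, HLA-DRA was at least 404-fold lower in M4 than in M2, at least 45.7-fold lower than in M3 and at least 93.4-fold lower than in M1 (edgeR adjusted p = 0.0118, 0.043 and 0.0169). The call against M3 was the least stable, with an adjusted p of 0.0528 under a replicate block, 0.102 with the labelled M1 and M2 libraries exchanged, and 0.101 to 0.161 with 1 library left out; against M2 the latter range was 0.0511 to 0.0637. Against M1 it was 0.0722 without M4 replicate 1, 0.0693 without M4 replicate 2 and 0.0772 in a fit of these lines alone. Set against M1 replicate 1 by itself, HLA-DRA was at least 9.26-fold lower in M4, so the larger bound rests on M1 replicate 2. The level in M3 was 0.714 ± 0.0624 CPM beside 6.30 ± 0.244 in M2 (log2 fold change -3.14, SE 1.14, adjusted p = 0.174), a difference that was not called.

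HLA-DRB1 and HLA-DPA1 had fewer counts. HLA-DRB1 (chromosome 6, 32545679 to 32557625, minus strand), a beta chain of HLA-DR, had 1 and 15 counts for M1, 54 and 27 for M2, 1 and 3 for M3, and 0 in both M4 libraries. It passed the filter on low counts only through M2, so its difference from M2 is given as a description, with no test. By its counts it was at least 30.04-fold lower in M4 than in M2. It was not called against M1 (adjusted p = 0.0534, and 0.0192 without M1 replicate 1) or M3 (0.237). DR beta genes are alike and differ between people, so reads of HLA-DRB1 and HLA-DRB5 may be split between them. HLA-DPA1 (chromosome 6, 33032346 to 33048552, minus strand), the alpha chain of HLA-DP, had 6 and 73 counts for M1, 170 and 95 for M2, 41 and 40 for M3, and 0 in both M4 libraries. It was at least 98.3-fold lower in M4 than in M2, at least 31.1-fold lower than in M3 and at least 30.6-fold lower than in M1 (edgeR adjusted p = 0.0101, 0.0263 and 0.0152). With 1 library left out the adjusted p reached 0.0582 against M2 (without M4 replicate 1), where 0.0502 was found without M2 replicate 1; it was 0.0608 to 0.123 against M3 (0.0776 with the exchange), and 0.0716 and 0.0638 without M4 replicate 1 or 2 against M1. Set against M1 replicate 1 by itself, the bound was 4.63-fold. HLA-DPA1 and HLA-DPB1 lie on opposite strands and share 4786 bases.

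The chains of HLA-DM parted from each other. HLA-DMB (chromosome 6, 32902406 to 32908805, minus strand) had 15 and 51 counts for M1, 31 and 40 for M2, 12 and 9 for M3, and 4 and 0 for M4. It was 20.6-fold lower in M4 than in M2 (log2 fold change -4.36, SE 1.12, edgeR adjusted p = 0.0291) and 19.1-fold lower than in M1 (-4.25, SE 1.12, adjusted p = 0.0239), and was not called against M3 (-2.60, adjusted p = 0.151). With 1 library left out its adjusted p ran from 0.05 to 0.138 against M2; against M1 it was 0.11 without M1 replicate 2 and 0.0961 without M4 replicate 2. The exchange gave 0.0706 against M1, and leaving both exchanged libraries out gave 0.153 against M1 and 0.0633 against M2. A fit of M1 and M4 alone gave 0.0587. The size was loose, since M4 held 4 counts in 1 library and 0 in the other: with 1 library left out the log2 fold change ran from -8.18 to -3.55 against M2 and from -8.06 to -3.11 against M1. HLA-DMA (chromosome 6, 32916390 to 32936871, minus strand), the alpha chain, had 87 and 224 counts for M1, 180 and 135 for M2, 214 and 162 for M3, and 236 and 90 for M4. The lines overlapped, and it was called in no comparison. Its log2 fold change in M4 against M2 was -0.19, with a 95% interval from -1.38 to 1.01 (adjusted p = 0.823), and turned to 0.20 without M4 replicate 2. The annotated span of HLA-DMA shares 501 bases with BRD2, on the other strand, which lay between 157 and 263 CPM; the part of BRD2 reads in the HLA-DMA counts was not tested.

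The M1 replicates were further apart for the class II genes than for the RFX genes. Replicate 2 over replicate 1, in CPM, was 38.0 for CD74, 19.3 for HLA-DRA, 15.1 for HLA-DRB1, 12.3 for HLA-DPA1, 4.70 for CIITA, 3.43 for HLA-DMB and 2.60 for HLA-DMA. The same ratio was 0.951 for RFX5, 1.02 for RFXAP and 1.40 for RFXANK. In M2 the ratio lay between 0.724 and 1.87 for all 10 genes. Without M1 replicate 2, CD74, HLA-DRA and HLA-DPA1 were called higher in M2 than in M1 (log2 fold changes of 6.56, 5.43 and 4.36, adjusted p = 0.00182, 0.0116 and 0.0292). With M2 replicate 1 left out as well, CD74 alone of these was called (6.55, adjusted p = 0.00877), and in M3 against M1 it was called at 5.71 (adjusted p = 0.00205). With all libraries the values were 2.27, 2.10 and 1.65 (adjusted p = 0.292, 0.304 and 0.347), and with the labelled M1 and M2 libraries exchanged they were 0.46, 0.43 and 0.36. HLA-DRA in M3 against M1 was called in opposite directions, at 2.29 without M1 replicate 2 (adjusted p = 0.0268) and at -1.96 without M1 replicate 1 (adjusted p = 0.0204), and was called in neither direction with all libraries. CD74 and HLA-DPA1 were called higher in M3 than in M1 without M1 replicate 2 (5.71 and 2.73, adjusted p = 0.000766 and 0.0456).

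The balance between the genes differed from line to line inside single libraries, where depth cancels. The count of CD74 over that of HLA-DRA was 3 and 5.92 for M1, 6.37 and 6.68 for M2, and 30.6 and 33.0 for M3. The 2 M3 libraries lay apart from the 4 others. CD74 over CIITA was 0.546 and 4.42 for M1, 14.1 and 16.0 for M2, and 135 and 87 for M3. With CIITA at 0.219 CPM in M3 and 0.215 CPM in M4, CD74 was at 22.7 CPM in M3 and near 0 in M4. HLA-DPB1 over HLA-DPA1 was 0.333 and 0.247 for M1, 0.294 and 0.642 for M2, and 2.32 and 2.88 for M3. These ratios are descriptions, since each rests on 2 libraries a line. Some also rest on few counts: CIITA had 12 and 25 in M3, and HLA-DPB1 and HLA-DPA1 had 2 and 6 in M1 replicate 1. CIITA overlaps DEXI, and HLA-DPB1 overlaps HLA-DPA1, on opposite strands, and use of strand is not given. Per kilobase of the canonical transcript in M2, CD74 stood at 24.9 CPM per kb, HLA-DRA at 5.10, HLA-DMA at 1.69, HLA-DPA1 at 0.886, HLA-DRB1 at 0.374 and HLA-DMB at 0.324. On that scale RFXANK stood at 28.1, RFX5 at 16.5 and RFXAP at 1.48.

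Of 8 other class II genes listed, 4 had enough counts to be tested, and their levels differed in M4. These 4 had their highest mean in M3, and the 4 not tested had theirs in M2. High M3 counts helped genes to pass the filter, so the place of M3 among the tested genes is a description. HLA-DPB1, the beta chain of HLA-DP, had 2 and 18 counts for M1, 50 and 61 for M2, 95 and 115 for M3, and 0 in both M4 libraries. It was highest in M3, where it was called against M1 (log2 fold change 3.36, SE 0.893, edgeR adjusted p = 0.0399), and it was at least 80.6-fold lower in M4 than in M3 (adjusted p = 0.00969) and at least 41.2-fold lower than in M2 (adjusted p = 0.00931). HLA-DQB1, a beta chain of HLA-DQ, had 0 counts for M1, 13 and 5 for M2, 119 and 90 for M3, and 18 and 6 for M4. For HLA-DQB1 and HLA-DQB2 only M3 had at least 10 counts in both libraries, so their high M3 counts are given with no test. HLA-DQB2, a close relative with which reads may be shared, had 0 and 2 counts for M1, 3 and 0 for M2, 116 and 86 for M3, and 22 and 0 for M4. HLA-DOB, a chain of the HLA-DM inhibitor HLA-DO, stood at 1.87 and 3.22 CPM for M1, 3.09 and 2.76 for M2, 10.5 and 10.4 for M3, and 3.04 and 2.61 for M4. HLA-DOB was 3.57-fold higher in M3 than in M2 (1.84 on the log2 scale, SE 0.317, edgeR adjusted p = 0.0186). It was 4.1-fold higher in M3 than in M1 (adjusted p = 0.0051) and 3.69-fold lower in M4 than in M3 (adjusted p = 0.00963). A gene model without a name, ENSG00000250264, covers 6700 bases of HLA-DOB on the same strand and lay between 3.72 and 20.2 CPM, so the HLA-DOB counts are uncertain. HLA-DQA1, HLA-DQA2, HLA-DOA and HLA-DRB5 had at most 18 counts in any library and 0 in both M4 libraries. Their mean in M2, the highest of the 4 lines, was 0.0508, 0.127, 0.0333 and 0.124 CPM in that order. In M3 they had at most 1 count in a library.

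**Figure D3:**
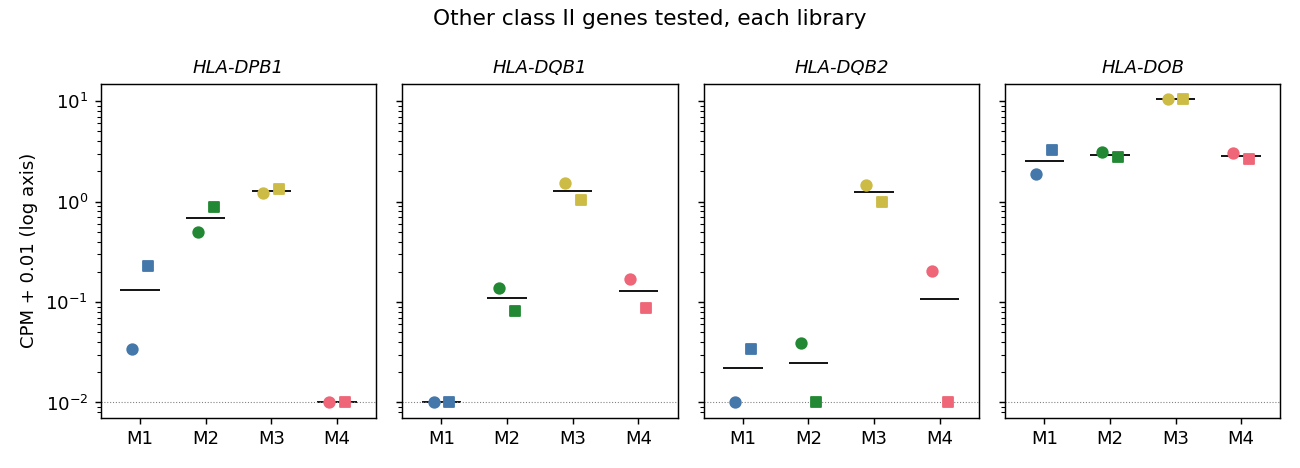
CPM plus 0.01 (log axis) of the 4 other class II genes tested, in each library by line; circles are replicate 1, squares replicate 2, bars the mean of the 2 libraries. All 4 were highest in the M3 libraries, and HLA-DPB1 was at 0 in both M4 libraries. The class II genes that were not tested, highest in M2, are not shown.

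The class II genes on chromosome 6 lie in an interval of 650 kb from HLA-DRA to HLA-DPB1 (32407655 to 33057473), which also holds 18 other genes. Of these, 8 were tested, and edgeR called 0 lower in M4 against any line, with 0 lower at an unadjusted p under 0.05 and 0 called lower by DESeq2. Over all genes tested, edgeR called 11.2% lower in M4 against M1, 6.94% against M2 and 6.3% against M3. With 8 genes, 0 called lower lies close to these shares. TAP1, TAP2 and PSMB9, which serve MHC class I, were called higher in M4 than in M1, where 20.7% of all genes were called. TAP1 stood at 46.1 CPM for M1, 64.0 for M2, 61.1 for M3 and 119 for M4. TAP2 stood at 43.4, 67.5, 73.4 and 118 CPM in the same order. HLA-DRA, HLA-DPA1 and HLA-DPB1, at the ends of the interval, had 0 counts in M4.

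**Figure D4:**
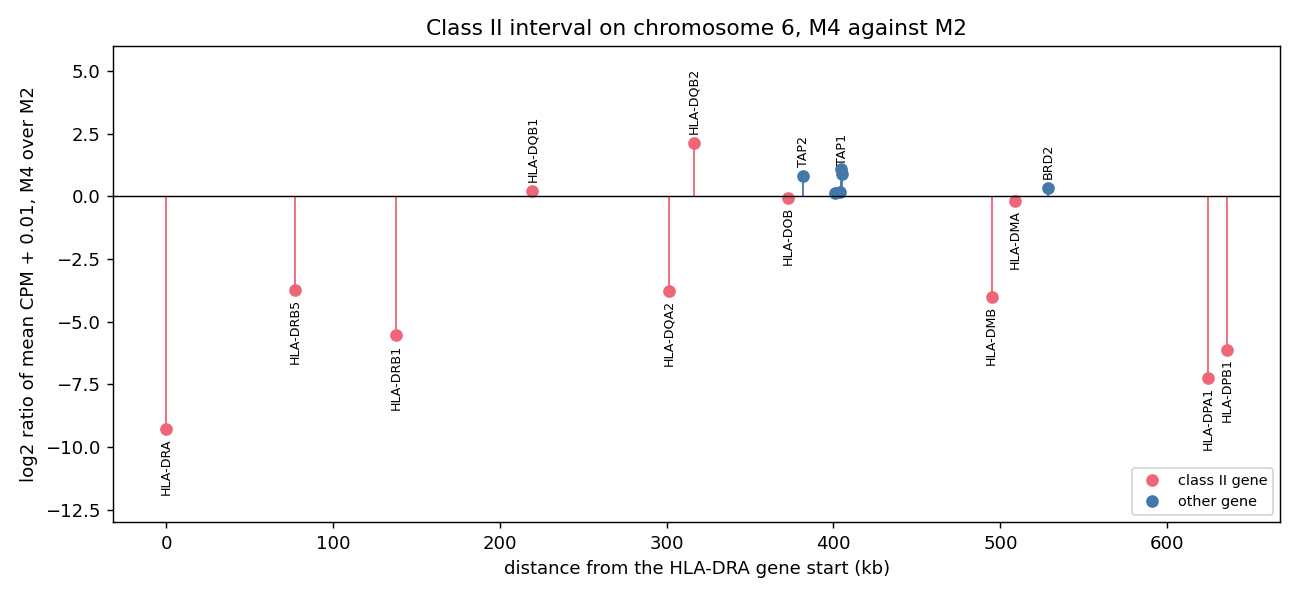
Log2 ratio of mean CPM plus 0.01, M4 over M2, against distance from the HLA-DRA gene start in kb, for named genes of the interval with a mean of at least 0.1 CPM in a line; for genes at 0 in M4 the ratio depends on the 0.01 added and is no measure of size. The class II genes ran from -9.30 (HLA-DRA) to 2.11 (HLA-DQB2), and the other genes, TAP1 and TAP2 among them, lay above 0.

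The other proteins of the promoter platform were compared from a list. CREB1, NFYA, NFYB, NFYC, EP300, CREBBP, KAT2B, SMARCA4 and CARM1, the factors and co-activators that work with RFX and CIITA, were all tested, and edgeR and DESeq2 both called 0 of 9 in each of the 6 comparisons, in which edgeR called 3.37% to 20.7% of all genes. At an unadjusted p under 0.05, 2 were higher and 1 lower in M4 against M2, 2 were higher in M4 against M3, 2 were lower in M4 against M1, 3 were lower in M3 against M1, 1 was higher and 2 lower in M2 against M1, and 0 passed in M3 against M2. Of 7 other RFX family genes, 4 were tested; RFX2 was called lower in M4 than in M2 (log2 fold change -1.44, SE 0.297, edgeR adjusted p = 0.0137) and no other call was made. Both ubiquitin ligases listed for class II turnover (MARCH1 and MARCH8) were called in no comparison by edgeR or DESeq2, and 1 of them was higher at an unadjusted p under 0.05 in M4 against each other line.

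Of 9 genes that process the invariant chain or supply peptides, 5 were called in M4 against M1 (2 higher, 3 lower), 3 against M2 (1 higher, 2 lower) and 1 against M3 (lower). Over all genes 20.7%, 13.9% and 10.3% were called in these comparisons, and the same shares stand beside the lists that follow. CTSS, the cathepsin that trims the invariant chain in professional antigen-presenting cells, had 250 and 303 counts for M1, 233 and 191 for M2, 197 and 163 for M3, and 15 and 30 for M4. Its M4 libraries were below all others, and it was 9.83-fold lower in M4 than in M2 (log2 fold change -3.30, SE 0.524, edgeR adjusted p = 0.00511) and 8.57-fold lower than in M3 (-3.10, SE 0.521, adjusted p = 0.00962). CTSV, the related protease of thymic epithelium, stood at 5.09 and 14.2 CPM for M1, 34.9 and 34.2 for M2, 165 and 436 for M3, and 253 and 193 for M4. It was called higher in M4 than in M2 (2.69, SE 0.576, adjusted p = 0.0175). IFI30, a thiol reductase of the endosome, was 2.93-fold lower in M4 than in M2 (-1.55, SE 0.282, adjusted p = 0.00852), and CTSF was called lower in M4 against M1 only among the M4 comparisons (-1.99, adjusted p = 0.0142).

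Interferon-gamma switches CIITA on through its receptor, the JAK kinases and IRF1. Of 11 genes listed for this input, 2 were called higher and 1 lower in M4 against M1, 2 higher against M2 and 3 higher against M3, beside 20.7%, 13.9% and 10.3% of all genes called. PRDM1 (BLIMP-1), a repressor of CIITA in plasma cells, had 75 and 39 counts for M1, 121 and 86 for M2, 419 and 454 for M3, and 3548 and 1909 for M4. It was higher in M3 than in M2 and in M4 than in M3, without overlap, by 4.36-fold from M2 to M3 (log2 fold change 2.12, SE 0.313, edgeR adjusted p = 0.0107) and by 5.30-fold from M3 to M4 (2.41, SE 0.308, adjusted p = 0.00428). SOCS1, an inhibitor of the JAK kinases whose gene lies 311 kb from CIITA, had 38 and 21 counts for M1, 49 and 36 for M2, 16 and 57 for M3, and 365 and 243 for M4. It was 6.36-fold higher in M4 than in M2 (2.67, SE 0.585, adjusted p = 0.0167) and 7.34-fold higher than in M3 (2.88, SE 0.591, adjusted p = 0.018). IRF1 stood at 20.4 and 24.3 CPM for M1, 21.3 and 21.1 for M2, 10.1 and 6.40 for M3, and 27.3 and 21.9 for M4, and was called lower in M3 than in M2 (-1.37, SE 0.241, adjusted p = 0.0197) and higher in M4 than in M3 (1.58, SE 0.242, adjusted p = 0.00761). IFNGR1, a chain of the receptor, was called lower in M4 than in M1 (-1.28, SE 0.157, adjusted p = 0.00125). It was called lower in M3 than in M1 as well (-1.44, SE 0.158, edgeR adjusted p = 0.00146). M4 and M3 were not distinguished for IFNGR1 (0.16, edgeR adjusted p = 0.515). Whether these genes have a part in the class II levels was not tested.

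**Figure D5:**
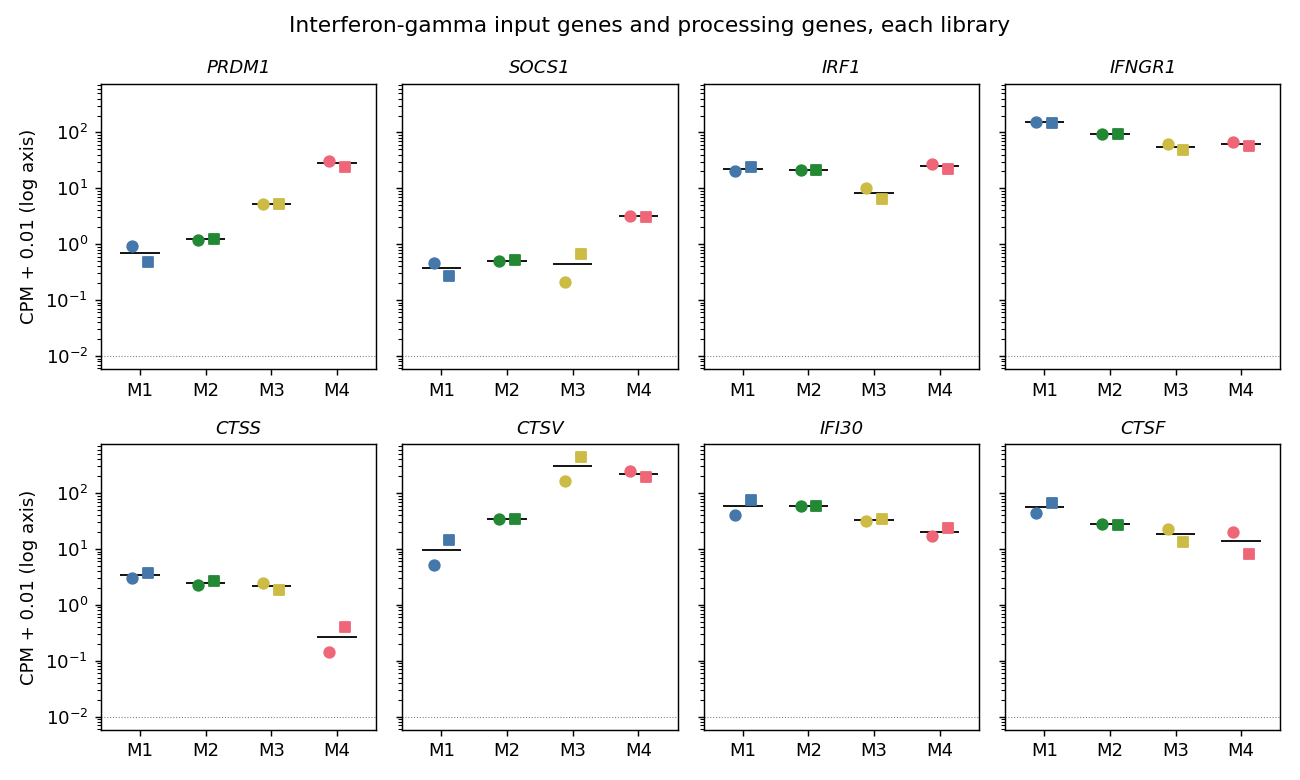
CPM plus 0.01 (log axis) of 4 genes of the interferon-gamma input (PRDM1, SOCS1, IRF1, IFNGR1) and 4 processing genes (CTSS, CTSV, IFI30, CTSF) in each library by line; circles are replicate 1, squares replicate 2, bars the mean of the 2 libraries. PRDM1 ran from 0.476 CPM in M1 to 31.3 CPM in M4, and CTSS was lowest in M4, at 0.132 and 0.384 CPM.

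MHC class I genes were looked at for contrast. Of 10 listed, 6 were called higher and 1 lower (HLA-C) in M4 against M1, HLA-B higher and HLA-C lower against M2, and HLA-C lower against M3, beside the same shares of all genes. HLA-C stood at 166 and 145 CPM for M1, 217 and 205 for M2, 176 and 162 for M3, and 57.4 and 35.0 for M4, so this class I chain was 4.56-fold lower in M4 than in M2 (log2 fold change -2.19, SE 0.232, edgeR adjusted p = 0.00121). NLRC5, the class I relative of CIITA, had 281 and 417 counts for M1, 745 and 649 for M2, 270 and 658 for M3, and 2111 and 900 for M4. No difference between the class I and class II lists was tested.

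Markers of blood cells, many of which carry class II RNA, were also read. PTPRC (CD45) had 3 counts in M1 replicate 2 and 0 in the other 7 libraries, and MS4A1, TYROBP and CD3E had 0 in all 8. Other markers on the list had counts in every library. CSF1R had 964 and 140 counts for M1, 440 and 281 for M2, 892 and 414 for M3, and 2271 and 1922 for M4. For CD83 the counts were 351 and 739, 350 and 333, 748 and 1884, and 590 and 423 in the same order. For CD86 they were 240 and 7, 84 and 38, 63 and 7, and 241 and 10. CSF1R, CD83 and CD86 were called in no comparison. The summed CPM of the 16 markers was 30.01 to 53.6 for M1, 19.5 to 20.03 for M2, 35.3 to 52.6 for M3 and 70.7 to 81.6 for M4. Of the 9 tested, ITGAX passed the filter on low counts only through M4, and LYZ and FCER1G only through M1. Their counts are therefore given with no test. FCER1G had 23 and 16 counts for M1, 11 and 20 for M2, 6 and 7 for M3, and 2 and 4 for M4. CD68 was called higher in M4 than in M1 and M2, and at 51.4 and 39.0 CPM it made up most of the M4 sum. CD14 was called lower in M4 than in M1 (log2 fold change -3.65, SE 0.523, edgeR adjusted p = 0.00228). LYZ had 13 and 38 counts in M1 and at most 3 in any other library, and ITGAX had 76 and 18 counts in M4 and at most 9 elsewhere. Mammary epithelial markers moved as well, with 3 of 8 called higher and 3 lower in M4 against M1, 2 higher and 3 lower against M2, and 2 lower against M3. KRT14, a basal keratin, stood at 2.30 and 2.74 CPM in M4 and between 8.26 and 99.7 CPM in the other libraries, and was 37.9-fold lower in M4 than in M3 (-5.24, SE 0.369, adjusted p = 0.000948). KRT5, another basal keratin, was called lower in M4 against all 3 lines, by 2.03 to 3.01-fold. KRT18, a luminal keratin, and EPCAM were called higher in M4 against M1 and M2. The part of either marker list in the class II levels was not tested.

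The genes whose pattern over the 8 libraries was most like the mean profile of the 6 chain and chaperone genes were B4GALNT4 (Pearson r = 0.985), TUSC3 (0.975), PDCL (0.975), DEF6 (0.973) and ASB9 (0.967), among 14297 genes with at least 100 counts in a library. The 6 averaged genes are part of that profile, which raises their own r. Theirs was 0.984 for HLA-DPA1, 0.981 for HLA-DRA, 0.929 for CD74, 0.891 for HLA-DMB, 0.858 for HLA-DRB1 and 0.608 for HLA-DMA. The regulators, which are not part of it, had 0.799 (RFXANK), 0.755 (RFXAP), 0.754 (CIITA) and 0.701 (RFX5). The 8 points share line, medium and depth, and r is given as a description. The ranges of the nearest genes were narrow beside those of the class II genes. B4GALNT4 ran from 12.3 CPM in M4 to 27.7 CPM in M2, and DEF6, the one gene of these 5 called in any comparison, was lower in M4 than in M2 (log2 fold change -1.01, SE 0.218, edgeR adjusted p = 0.0162).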

How the data were processed

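Gene counts of 8 RNA-seq libraries (M1, M2, M3 and M4, 2 biological replicates each, grouped by sample title) were analysed. The authors trimmed poly A+ paired-end reads with Trimmomatic, aligned them to hg19 (GRCh37) with STAR, counted with STAR/RSEM on GENCODE v19 and used Picard for mapping statistics. The deposited values are expected counts, not normalized; 12.8% were not whole and were rounded. Tool versions and use of strand are not given in the sources used here. Gene symbols and positions are those of GENCODE 44 lifted to GRCh37, which held 94.7% of the genes with a count. Promoters came from RefSeq (GRCh38.p14) and were placed in GRCh37 by exact match; HLA-DRA and CIITA had no entry. Totals ran from 69669945 to 107350288, so genes under 10 counts carry a large counting error; exact 95% intervals and limits at 0 (3 counts over both libraries) cover counting error only.

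edgeR 4.0.16 in R 4.3.3 (TMM, filterByExpr, robust quasi-likelihood F test, 1 coefficient per line) was fitted to 18431 genes with Benjamini-Hochberg adjustment, a threshold of 0.05 and a fold threshold of 1 (log2); the SE is the one implied by F. The study's 2-fold rule was applied to CPM plus 0.001. Alternatives were size factors, DESeq2 1.42.0, no filter, a replicate block, fits of 2 lines, each library left out, M1 replicate 2 and M2 replicate 1 exchanged or left out, no robust step and, for the 2-fold rule, other pseudocounts. The fit was tested on simulated data. The replicates are labelled biological, and p-values measure the spread between these cultures only. The M2 libraries were far more alike than the other pairs. Chi-square per degree of freedom between replicate counts was 6.95 for M2, 283 for M1, 361 for M3 and 136 for M4. Whether the M2 libraries came from separate cultures was not tested. Likeness used log2(CPM + 0.1). From each list the genes called in a comparison with M4 were named, largest change first, at most 4. Tables were made with Python 3.11.15 and pandas 2.3.3, intervals with scipy 1.17.1 and plots with matplotlib 3.10.9. The genes, lists and tests were chosen with earlier results of these data known.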

Additional observations from a re-analysis of the deposited data

How the results depend on the processing

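The counts of the 10 genes called moved with several choices. Without a filter on low counts, 2 were called in M2 against M1, 2 in M3 against M1 and 3 in M3 against M2; in fits of only the lines compared, the counts were 0 for M3 against M1, 2 for M4 against M1 and 3 for M3 against M2. With 1 library left out they ran from 0 to 3 for M2 against M1 and M3 against M1, 1 to 7 for M4 against M1, 0 for M3 against M2, and 1 to 2 for M4 against M2 and M4 against M3; here the lone library was assumed to vary like the other lines, and the count over all genes fell as well (from 2567 to between 927 and 1665 for M4 against M2). The exchange of M1 replicate 2 and M2 replicate 1 gave 0 for M3 against M1 and M3 against M2 and 2 for M4 against M3, and leaving both out gave 1 for M2 against M1. The 2-fold rule with 1 CPM added named 1 gene. The cause of these moves was not tested. Replicate numbers did not pair the samples (correlations of deviations from -0.02 to 0.12); with a replicate block the counts, HLA-DRB1 included, were 0, 1, 6, 1, 7 and 3, and the block ended 1 call, HLA-DRA in M4 against M3.

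Of 715 log2 fold changes of single genes under alternatives, 593 kept direction and call, 65 lost the call, 18 gained one and 39 changed sign. None of those that changed sign was called with all libraries. Bare ranges are those over 1 library left out in turn. In M2 against M1 these were CIITA (-0.45 to 1.78), RFX5 (-0.06 to 0.01), RFXANK (-0.40 to 0.10, 0.20 with the exchange, 0.04 with both left out), HLA-DMA (-0.57 to 0.81, 0.72 with the exchange, 0.87 with both left out) and HLA-DMB (-0.52 to 1.26). In M3 against M1 these were RFX5 (-0.24 to 0.24, -0.02 with both left out), RFXAP (-0.18 to 0.19, -0.13 with the exchange), RFXANK (-0.37 to 0.12, 0.04 with the exchange, 0.12 with both left out), HLA-DRA (-1.96 to 2.29, 2.29 with both left out), HLA-DRB1 (-2.86 to 0.91, 0.90 with both left out), HLA-DMA (-0.26 to 1.12) and HLA-DPA1 (-0.86 to 2.73, -0.84 with the exchange). In M4 against M1 these were HLA-DMA (-0.73 to 0.62, 0.20 with the exchange, 0.62 with both left out). In M3 against M2 these were RFX5 (-0.22 to 0.27), RFXANK (-0.03 to 0.08, -0.16 with the exchange) and HLA-DMA (-0.03 with the exchange). In M4 against M2 these were HLA-DMA (-0.67 to 0.20). In M4 against M3 these were CIITA (-0.42 to 0.49, 0.07 with the replicate block).  Depth limits HLA-DRB1 and HLA-DMB most, which had under 60 counts in every library.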
